A study of Mus musculus with 3 samples.

Results

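Endoneurial-type macrophages of uninjured nerve were taken here as the cells of the steady-state sciatic nerve library that carried little RNA of the epineurial lectin genes and at least some RNA of 4 genes listed as endoneurial markers. Membership asked for 200 or more detected genes and for mitochondrial UMIs of 10% or less. It had to hold 0 or 1 unique molecular identifier (UMI, a tag that counts each captured RNA molecule once) summed over Cd209b, Cd209d, Cd209f, Cd209g and Fcna. It also had to hold 1 or more UMIs summed over Cx3cr1, Gpr34, St3gal6 and Lilra5. Of 728 kept steady-state cells, 288 were members (39.6%, exact Clopper-Pearson 95% interval 36.0 to 43.2). The whole series holds 5586 cell barcodes.

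The series compared sciatic nerve macrophages from mice of the inbred strain C57BL/6 in 3 single-cell libraries: uninjured nerve (steady state), nerve 1 day after crush and nerve 5 days after crush. Nerve crush severs the axons and leaves the outer sheath in place. No genotype other than the strain, no sort or gate, no age and no number of animals is given in the sources used here. Each group was 1 library, so no test between groups was possible, every interval covers counting error only, and library and time cannot be told apart. The deposited counts gave 731, 2796 and 2059 barcodes, the same as the numbers of cells stated in the labels, of which 728, 2793 and 2059 were kept, with a median of 2238.5, 2555 and 2473 UMIs per cell. Between 2 and 11 barcodes were shared by any pair of libraries, and 1 member barcode also occurred in the day 1 library.

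A peripheral nerve is wrapped in an outer connective tissue layer, the epineurium. The endoneurium is the space inside the nerve fascicles, among axons and Schwann cells. Macrophages live in both layers. Endoneurial macrophages are known for genes that they share with the microglia of the brain, among them the fractalkine receptor Cx3cr1. Epineurial macrophages are known for the CD209 lectins, which bind sugars on microbes, for ficolin A (Fcna), a soluble lectin of the complement system, and for the secreted protein Retnla. Both kinds are macrophages that take up debris and present antigen on class II molecules.

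The remaining steady-state cells formed 2 classes. Negative cells, 194 in number, met the lectin limit and held 0 UMIs of the 4 marker genes. Lectin cells, 246 in number, held 2 or more UMIs of the lectin and ficolin genes, with a median of 13.5. The median depth was 2304 UMIs in members, 2029 in negative cells and 2359 in lectin cells. Because a shallow cell can miss the RNA of a gene it expresses, each comparison paired cells of nearly equal depth, within 10% of UMIs. Summed UMIs were turned into CPM (counts per 1000000 UMIs of the class), and 2 classes were compared by the ratio of CPM for genes with at least 50 UMIs over both. A gene is called past the fold at a ratio of 2 or more in either direction.

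The label was checked against general markers. Members were macrophages by their RNA. C1qa, a chain of the complement starter C1q, was detected in 99.7% of members and Apoe, a lipid carrier, in every member. In the 172 members paired with negative cells, the growth factor receptor Csf1r stood at 781 CPM and the macrophage surface protein Adgre1 (F4/80) at 464 CPM. Markers of several other cell types were mostly at 0 in the same members, and those of others were not. All 7 mast cell markers and all 7 pericyte and muscle markers were at 0. For T and NK cells, 8 of the 9 markers in the table were at 0, with Cd3d, Cd3e and Nkg7 among them. For neutrophils, 8 of 10 were at 0, with S100a8 and S100a9 among them. Of the 12 monocyte markers 6 were at 0, Ly6c2 and Chil3 among them, and the summed level of the list was 1218 CPM in members and 1829 CPM in the negative cells paired with them. In the pairing with lectin cells it was 1359 and 1879 CPM. Summed dendritic cell markers stood at 165 CPM in members and 256 CPM in negative cells, with 9 of 13 at 0 in members. Of 7 B cell markers 3 were at 0 in members, Ms4a1 and Pax5 among them, with summed levels of 138 and 83.4 CPM. Of 10 Schwann cell markers 5 were at 0, Sox10 and Prx among them, with summed levels of 241 and 347 CPM, and 12.2% of the paired members and 18.6% of the negative cells held 2 or more UMIs of that list. The part of these low levels in any result was not tested.

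The 4 marker genes chose the members, so their values are given as a description. Cx3cr1 had 175 UMIs in 70 of 288 members. Gpr34, a receptor for lysophosphatidylserine, had 170 UMIs in 93 members. St3gal6, an enzyme that adds sialic acid to sugar chains, had 211 UMIs in 119 members. Lilra5, an activating receptor of the leukocyte immunoglobulin-like family, had 213 UMIs in 123 members. No single gene carried the rule, and per cell the evidence was thin. A single UMI put 105 of the 288 members (36.5%) in the class, the median was 2 UMIs, and the highest was 28. Of the 288 members, 190 held only 1 of the 4 genes, 80 held a pair, 17 held 3, and 1 held all 4.

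The lectin limit does not use these 4 genes, and their level on its other side is given as a description. The rule was chosen with earlier results of these data known, so a difference across the limit is not a test of these genes. At least 1 UMI of the 4 genes was found in 59.8% of the 482 cells with 0 or 1 lectin UMI (55.2 to 64.2) and in 25.6% of the 246 lectin cells (20.3 to 31.5). The median depth of the first set was 2207 UMIs and of the second 2359. After each cell was thinned to 1000 UMIs, the shares were 42.1% of 432 cells and 17.0% of 206 cells. The 4 genes together were thus found more often among cells with little lectin RNA, at both depths. The share in lectin cells gives a level at which UMIs of these genes occurred in cells that carry the other programme. By gene, it was 4.5% for Cx3cr1, 11.8% for Gpr34, 10.6% for St3gal6 and 6.5% for Lilra5.

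Whether the 4 genes marked the same cells was examined by leaving each out of the rule in turn. Cells chosen by the other 3 genes were paired by depth with cells that held 0 UMIs of those 3, and the level of the gene left out was compared. For Cx3cr1 it was 195 CPM against 164 CPM, a ratio of 1.19 (0.851 to 1.68). For Gpr34 it was 152 against 172 CPM, a ratio of 0.885 (0.623 to 1.25), and for St3gal6 it was 191 against 216 CPM, a ratio of 0.885 (0.667 to 1.17). These 3 intervals include 1. For Lilra5 it was 250 against 168 CPM, a ratio of 1.49 (1.12 to 2.0). Among cells with little lectin RNA, only Lilra5 of these 4 genes thus differed beyond counting error with the other 3. Because the markers went together so little, the label endoneurial is not used for these cells from here on, and they are called members of the rule.

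The same chosen cells were then compared with depth-matched lectin cells, a comparison added after seeing the data. Since the 4 genes were chosen with earlier results of these data known, these ratios too are a description and not a test. Here Cx3cr1 stood at 182 against 25.8 CPM, a ratio of 7.03 (3.90 to 13.7). Lilra5 stood at 262 against 55.9 CPM, a ratio of 4.69 (3.0 to 7.61), and St3gal6 at 212 against 62.5 CPM, a ratio of 3.39 (2.15 to 5.52). Gpr34 differed least, at 147 against 98.6 CPM, a ratio of 1.49 (1.00 to 2.23). All cells with 0 or 1 lectin UMI, not chosen by any marker gene, gave ratios of like size over lectin cells in 245 pairs: 7.56 for Cx3cr1, 1.71 for Gpr34, 3.10 for St3gal6 and 4.19 for Lilra5. The lectin limit alone thus gave differences of this size, and the other 3 genes did not visibly add to them. The plot of marker ratios shows both sets of values.

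**Figure D1:**
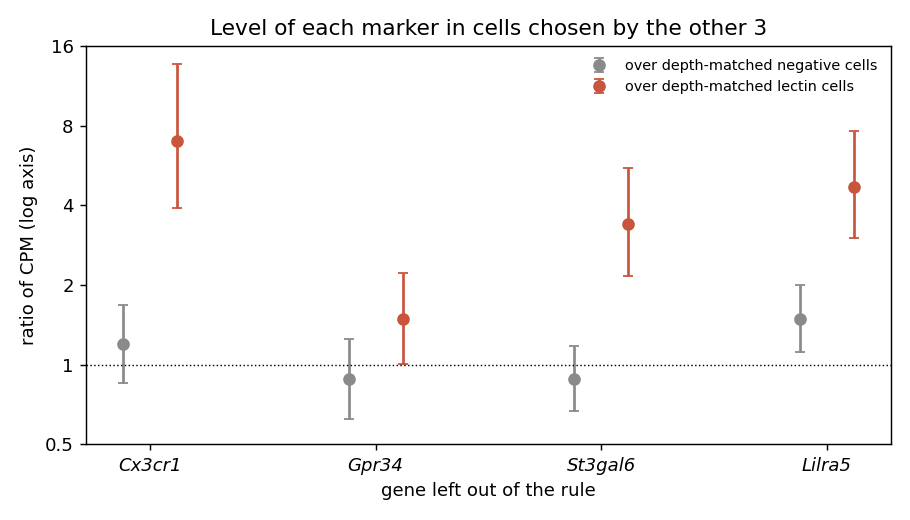
Ratio of CPM (vertical, log axis) of each of the 4 marker genes (horizontal) in cells chosen by the other 3 genes, over depth-matched negative cells (grey) or lectin cells (red); bars are 95% counting intervals. Against negative cells the ratios lie between 0.885 and 1.49, and against lectin cells between 1.49 and 7.03.

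Ccl12, a chemokine that draws monocytes and the fifth gene listed as a marker, had no part in the rule. It was detected in 64.2% of members (58.4 to 69.8), in 53.6% of negative cells (46.3 to 60.8) and in 35.8% of lectin cells (29.8 to 42.1). Per cell, members ranged from 0 to 77 UMIs with a median of 2, negative cells from 0 to 74 with a median of 1, and lectin cells from 0 to 56 with a median of 0. The classes overlapped widely from cell to cell. In depth-matched cells, Ccl12 stood at 3355 CPM in members and 1956 CPM in negative cells, a log2 ratio of 0.78 (0.65 to 0.91), with UMIs in 111 and 96 of 172 cells. Against lectin cells it stood at 3013 and 736 CPM, a log2 ratio of 2.03 (1.87 to 2.20), with UMIs in 136 and 80 of 203 cells.

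Retnla, a secreted protein of alternatively activated macrophages, was far higher in lectin cells than in the other 2 classes, without being part of the rule. It had 510 UMIs over 288 members, 699 over 194 negative cells and 10286 over 246 lectin cells. Members ranged from 0 to 54 UMIs with a median of 0, negative cells from 0 to 153 with a median of 0, and lectin cells from 0 to 281 with a median of 23. In depth-matched cells it stood at 401 CPM in members and 1703 CPM in negative cells, a log2 ratio of -2.08 (-2.35 to -1.82). UMIs occurred in 66 and 83 of 172 cells, so that the share of cells with Retnla differed less than its level. The upper quartile was 1 UMI in both classes, and a few negative cells carried the difference. Of the 699 UMIs in all 194 negative cells, 153 lay in 1 cell, 76.4% in the 10 highest cells, and 82.5% in the 13 cells with 10 or more. Without the highest cell of each class the log2 ratio was -1.95. Against lectin cells Retnla stood at 621 and 18004 CPM, a log2 ratio of -4.86 (-5.02 to -4.69).

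The stretches of DNA just before the transcription starts of Ccl12 and Retnla are shown because these genes, both outside the rule, differ in opposite directions between members and lectin cells. They are the 250 bases upstream, from RefSeq on mouse build GRCm38.p6, 5′ to 3′ on the plus strand, chr11:82101595-82101844 for Ccl12 and chr16:48842359-48842608 for Retnla. Capitals mark matches on either strand to the core of the myeloid factor PU.1, GAGGAA.
Ccl12: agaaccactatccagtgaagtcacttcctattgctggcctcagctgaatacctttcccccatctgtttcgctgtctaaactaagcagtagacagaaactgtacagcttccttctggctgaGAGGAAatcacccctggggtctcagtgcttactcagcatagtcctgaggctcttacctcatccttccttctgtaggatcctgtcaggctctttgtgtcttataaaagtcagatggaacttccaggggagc
Retnla: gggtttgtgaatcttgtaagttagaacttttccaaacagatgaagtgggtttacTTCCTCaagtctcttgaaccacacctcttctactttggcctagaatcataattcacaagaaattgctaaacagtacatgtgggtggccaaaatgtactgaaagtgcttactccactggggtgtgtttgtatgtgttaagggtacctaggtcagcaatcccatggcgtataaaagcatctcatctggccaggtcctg
Each holds 1 match, in Ccl12 from base 130 to 125 before the start and in Retnla, on the other strand, from base 196 to 191. Such a match occurs in 23.3% of all 32851 windows of this length. No match was found to AP-1 (TGANTCA, in 6.75% of windows), an NF-kappaB motif (0.356%) or an interferon-stimulated response element (2.98%), on either strand. These are matches of letters only.

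**Figure D2:**
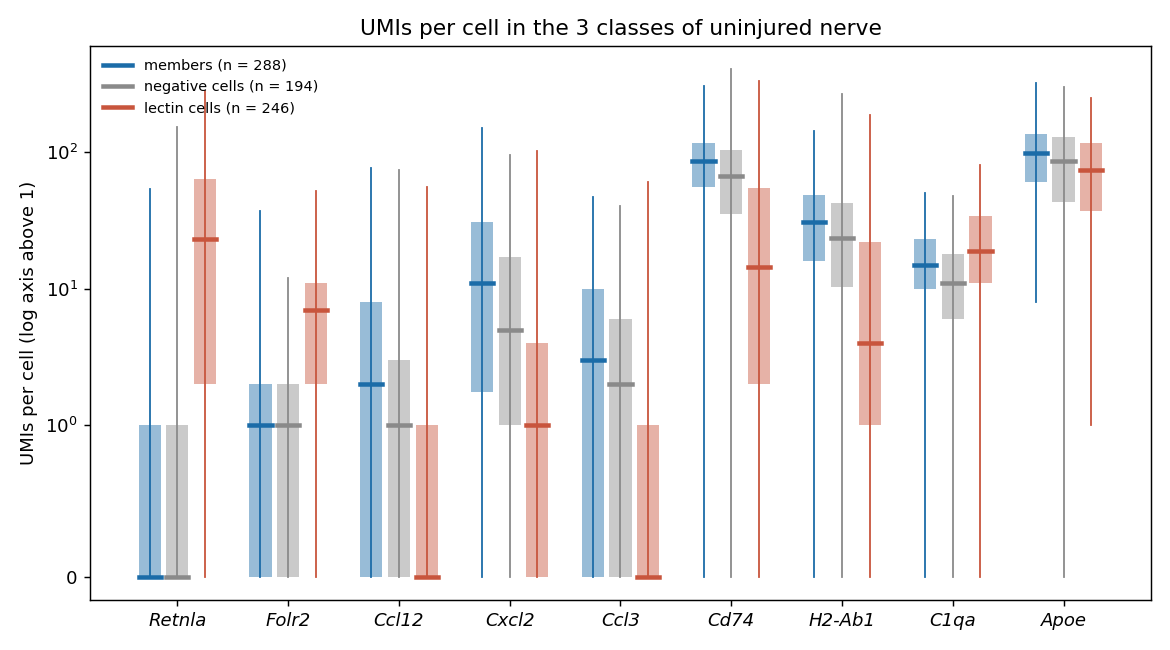
UMIs per cell (vertical, log axis above 1) of 9 genes in members, negative cells and lectin cells of the steady-state library; boxes span the middle 50% of cells, thick lines are medians and thin lines run from the lowest to the highest cell. Members and negative cells overlap widely for each gene, while lectin cells are higher for Retnla and Folr2 and lower for Cxcl2, Cd74 and H2-Ab1.

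Members and negative cells differed little across the transcriptome. Of 1775 genes compared in 172 depth-matched pairs, 46 (2.59%) were past the fold higher in members and 54 (3.04%) lower, and the median log2 ratio over all genes was -0.00. Class II antigen presentation was at the same level in both. Cd74, the class II chaperone, had 36792 and 36107 CPM, a log2 ratio of 0.03 (-0.01 to 0.06), and H2-Ab1, a class II chain, had 14761 and 14264 CPM, a log2 ratio of 0.05 (-0.01 to 0.10). None of the 7 class II genes compared was past the fold, and their median log2 ratio was 0.02. Immediate early genes, switched on within minutes of a stimulus, had a median of 0.10 with 0 of 20 past the fold. The 13 genes of the resident macrophage core had a median of 0.04, also with 0 past the fold.

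Genes that microglia share did not all run in one direction, and the larger differences were higher in members. Trem2, a receptor for lipids and debris, stood at 553 CPM in members and 355 CPM in negative cells, a log2 ratio of 0.64 (0.32 to 0.97). Fcrls, an Fc receptor-like gene, stood at 768 and 549 CPM, a log2 ratio of 0.48 (0.22 to 0.75). Over the whole microglia-associated list, 9 of 20 genes could be compared and 0 passed the fold. The lowest log2 ratio was -0.13, the highest 0.87 and the median 0.09. The 6 microglia-defining genes, of which 1 could be compared, summed to 925 CPM in members and 638 CPM in negative cells. Of the paired cells, 40.7% and 29.7% held 2 or more UMIs of these genes. Other microglial genes were rare in members: P2ry12 was found in 7.3%, Siglech in 8.7%, Tmem119 in 1.7% and Olfml3 in 2.4%. Sall1, which defines brain microglia, had 0 UMIs in 288 members, which allows a share of up to 1.27% of cells with a UMI.

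Among receptors, the high-affinity Fc receptor Fcgr1 stood at 252 CPM in members and 137 CPM in negative cells, a log2 ratio of 0.88 (0.37 to 1.40). C3ar1, the receptor for complement fragment C3a, stood at 567 and 377 CPM, a log2 ratio of 0.59 (0.27 to 0.91). The tetraspanin Cd9 was just past the fold, with 174 and 86.1 CPM, a log2 ratio of 1.01 (0.38 to 1.67). So was the immunoproteasome subunit Psmb9, with 141 and 64.6 CPM, a log2 ratio of 1.13 (0.40 to 1.89). Of the chemokines that call neutrophils and monocytes, Cxcl2, Ccl3 and Ccl4 had log2 ratios of 0.53, 0.50 and 0.62, while Ccl7 had -0.05 (-0.14 to 0.04). The list of inflammatory cytokines and chemokines had a median of 0.27 with 0 of 12 past the fold.

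Lower in members than in negative cells were S100a4, a calcium-binding protein common in monocytes, at 59.7 and 148 CPM (log2 ratio -1.31, -2.09 to -0.57), and the mitochondrial chaperonin Hspe1, at 106 and 213 CPM (log2 ratio -1.01, -1.60 to -0.44). S100a4 was the 1 monocyte marker past the fold of 4 compared. Of 14 epineurial-associated genes outside the rule, Retnla alone was past the fold, and the median was -0.30. Folr2, a folate receptor of resident macrophages, stood at 570 and 821 CPM, a log2 ratio of -0.53 (-0.79 to -0.27). Mrc1, the mannose receptor, stood at 391 and 385 CPM and Cd163, the haptoglobin-hemoglobin receptor, at 304 and 301 CPM, with log2 ratios of 0.02 and 0.01.

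Many of the genes past the fold rested on 1 cell. Of the 100 genes past the fold between members and negative cells, 27 had at least 50% of their UMIs in a single cell, and so did 11 of the 16 with the widest ratios. The widest was Dnajc13, with 57 UMIs in members, 52 of them in 1 cell, and 1 in negative cells. Over the library, 63 genes had 20 or more UMIs in 1 cell that made up at least 50% of all their UMIs, against 28 at day 1 and 18 at day 5. These counts are over 728, 2793 and 2059 kept cells. A single cell reaches such a share more easily where cells are fewer, so they do not compare the libraries on equal terms. The source of these high single counts was not tested. Counting each gene without its highest cell in each class, a setting chosen after seeing the data, left 13 genes higher (0.864% of 1504) and 23 lower (1.53%). The 8 leading genes on the higher side were then Prmt1, Cdc42se1, Chic2, Hmgn1, Zeb2os, Psmb9, Tomm20 and Zmat2. On the lower side they were Retnla, Cnppd1, S100a4, Nsmce4a, Mkrn1, Vps26a, Epsti1 and Fam103a1. Prmt1, an arginine methyltransferase, had 111 UMIs in 30 members and 28 in 20 negative cells. Tomm20, an import receptor of mitochondria, had 100 UMIs in 42 members and 40 in 27 negative cells. Hmgn1, a nucleosome-binding protein, had 58 UMIs in 33 members and 26 in 15 negative cells.

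Against lectin cells, members differed in far more genes. In 203 depth-matched pairs, 160 of 2336 genes (6.85%) were past the fold higher in members and 247 (10.6%) lower, with a median log2 ratio of -0.09 over all genes. With scaling by the median of ratios in place of CPM, the counts were 201 higher and 200 lower. Members carried more RNA of inflammatory mediators, immediate early genes and class II genes. Lectin cells carried more RNA of epineurial-associated, interferon-response and some complement genes. These values describe the classes that the lectin limit made, and are not a test of them.

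Of 13 inflammatory cytokines and chemokines compared, 10 were past the fold higher in members and 0 lower, with a median log2 ratio of 1.19. Cxcl2, a neutrophil attractant, had 4548 UMIs in 176 of 203 members and 1287 in 131 of 203 lectin cells, a log2 ratio of 1.87 (1.78 to 1.96). Ccl3 had 1539 and 478 UMIs, a log2 ratio of 1.74 (1.59 to 1.89), and Ccl4 had 2173 and 688 UMIs, a log2 ratio of 1.71 (1.58 to 1.83). Tnf stood at 118 and 42.5 CPM and Il1b at 476 and 209 CPM, log2 ratios of 1.47 and 1.19. Ccl7, a monocyte attractant, had a log2 ratio of 0.61 and was not past the fold. Of 6 NF-kappaB feedback genes, which restrain the factor that induces them, 2 were past the fold: Nfkbid at 360 and 116 CPM and Tnfaip3 at 154 and 56.0 CPM. Of 20 immediate early genes 8 were past the fold, all higher in members, with a median of 0.80. Fos stood at 8545 and 3457 CPM, Jun at 5252 and 2124 CPM and Egr2 at 394 and 156 CPM.

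Class II antigen presentation had 4 of 8 genes past the fold, all higher in members, and a median of 1.00. Cd74 had 17972 and 8657 UMIs, a log2 ratio of 1.10 (1.07 to 1.14). H2-DMb1, which helps load peptide, had 649 UMIs in 150 members and 270 in 97 lectin cells, a log2 ratio of 1.31 (1.11 to 1.52). H2-Ab1 had a log2 ratio of 1.03 and the costimulatory ligand Cd86 of 1.12, while H2-Aa at 0.98 and H2-Eb1 at 0.95 were just under the fold. The class II RNA of lectin cells was unevenly spread. Cd74 per cell ran from 0 to 304 UMIs with a median of 86 in members, and from 0 to 331 with a median of 14.5 in lectin cells. Class I genes, by contrast, had 0 of 8 past the fold and a median of -0.41.

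Of the chemokine, purine and other G protein-coupled receptors, 7 of 11 were past the fold higher in members and 1 lower. C3ar1 stood at 507 CPM in members and 168 CPM in lectin cells, a log2 ratio of 1.59 (1.24 to 1.96). Gpr183, an oxysterol receptor, had 1.54 (0.93 to 2.18), and the monocyte chemokine receptor Ccr2, with UMIs in 50 and 25 of 203 cells, had 1.50 (1.05 to 1.97). The monocyte marker list as a whole ran mainly the other way, with a median of -1.71. Of its 5 genes compared, 3 were past the fold lower in members and 1, Ccr2, higher. Among receptors that signal through tyrosine motifs, the inhibitory lectin Clec12a had 193 UMIs in 83 members and 43 in 27 lectin cells, a log2 ratio of 2.22 (1.73 to 2.73). Cd9 stood at 146 and 42.5 CPM (log2 ratio 1.78, 1.07 to 2.54). The transcription factor Irf8 stood at 224 and 96.6 CPM, and the coreceptor for bacterial lipopolysaccharide Cd14 at 3858 and 1503 CPM. The microglia-associated list as a whole had 1 gene higher and 1 lower of 10, with a median of 0.20. The gene lower was Ltc4s, leukotriene C4 synthase, at 240 and 1427 CPM. Fcrls did not differ beyond counting error, with 663 and 688 CPM (log2 ratio -0.05, -0.27 to 0.17).

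On the lower side in members, 10 of 15 epineurial-associated genes outside the rule were past the fold, with 0 higher and a median of -1.34. This list was drawn up with results of these data known. Folr2 had 322 UMIs in members and 1731 in lectin cells, a log2 ratio of -2.38 (-2.55 to -2.21). The C-type lectin Clec10a stood at 200 and 821 CPM (-2.04, -2.37 to -1.72), the glutathione transferase Mgst1 at 28.0 and 162 CPM (-2.54, -3.47 to -1.71), and the hyaluronan receptor Lyve1 at 196 and 446 CPM (-1.19, -1.54 to -0.84). The 5 genes of the list within the fold included the lectin Mgl2, with a log2 ratio of 0.34, Mrc1 with -0.10 and Cd163 with -0.37.

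Of 11 interferon-response genes, 9 were past the fold lower in members and 0 higher, with a median of -1.35. The regulator Irf7 had 12 UMIs in 5 members and 56 in 30 lectin cells, Zbp1, a sensor of nucleic acids, 10 in 5 members and 48 in 25 lectin cells, and Ifit3 24 in 5 members and 92 in 24 lectin cells. Isg15, a ubiquitin-like modifier, stood at 81.9 and 178 CPM. Ly6e, which is not in that list, had 83 UMIs in 40 members and 926 in 154 lectin cells, a log2 ratio of -3.43 (-3.77 to -3.11). Among complement genes 3 of 10 were past the fold lower and 1, C3ar1, higher. Factor B (Cfb) had 2 UMIs in 2 members and 56 in 41 lectin cells, a log2 ratio of -4.76 (-7.84 to -2.84). C4b had 23 and 136 UMIs, a log2 ratio of -2.52 (-3.22 to -1.87), and properdin (Cfp) 150 and 624 UMIs, a log2 ratio of -2.01 (-2.27 to -1.75). C1qa was 7078 and 9919 CPM, within the fold.

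Other genes lower in members were the chemokine Ccl8, with 15 UMIs in 6 members and 182 in 46 lectin cells, the lysosomal protease Ctsd at 276 and 722 CPM, the phospholipid transfer protein Pltp at 352 and 1000 CPM, and the growth factor Igf1 at 83.9 and 249 CPM. No iron and heme gene of 7 was past the fold, but the median of that list was -0.73. Ccl17, a dendritic cell chemokine, had 235 UMIs in lectin cells and 1 in members, but they lay in only 4 lectin cells, and without the highest cell of each class it was no longer compared. Without the highest cell of each class, 120 genes were higher (5.91% of 2029) and 209 lower (10.3%), so this comparison rested less on single cells.

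**Figure D3:**
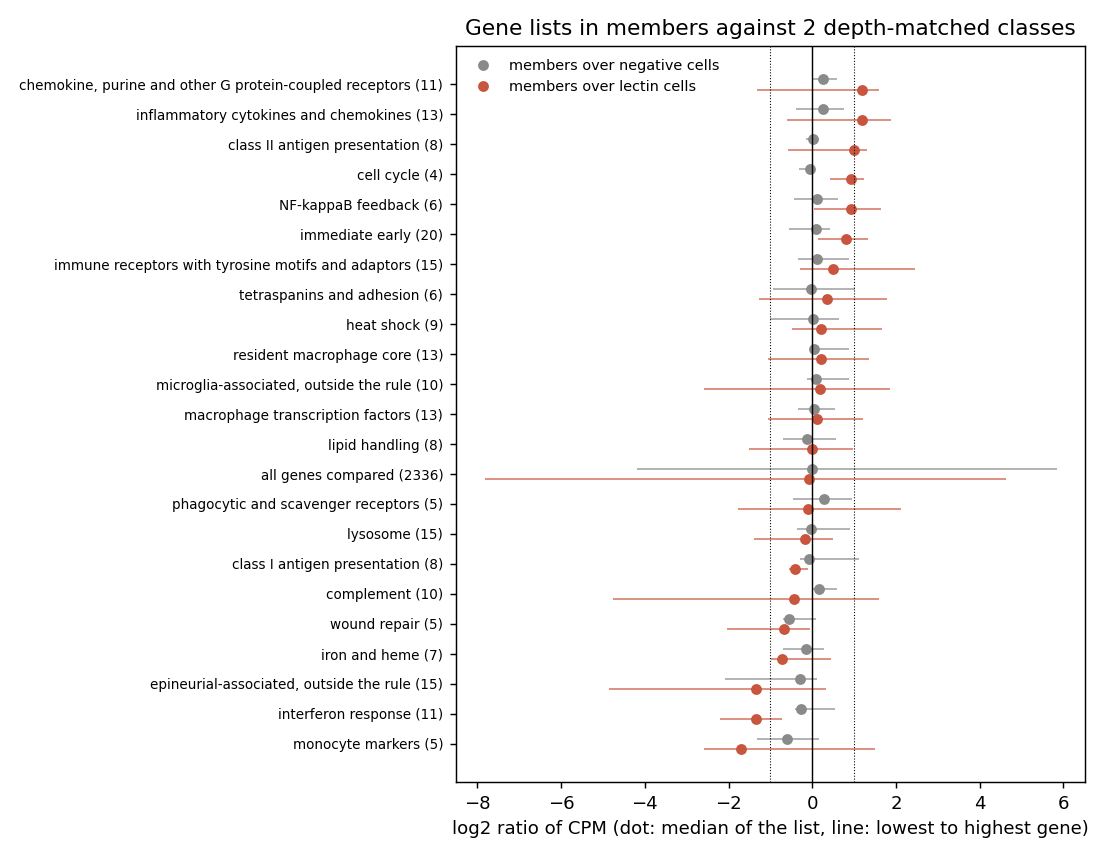
Log2 ratio of CPM (horizontal) of the gene lists with at least 4 genes compared, in members over depth-matched negative cells (grey) and over lectin cells (red); dots are list medians, lines run from the lowest to the highest gene, numbers in brackets are genes compared with lectin cells and dotted lines mark the 2-fold limit. Medians against negative cells stay between -0.61 and 0.29, while against lectin cells they run from -1.71 for monocyte markers to 1.20 for G protein-coupled receptors.

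Values on both sides of the lectin limit are given as a description. Retnla stood at 734 CPM in the 248 members with 0 lectin UMIs and at 820 CPM in the 40 members with 1. Just outside, in 14 cells with 2 lectin UMIs and a marker gene UMI, it stood at 3824 CPM, and in 49 such cells with 3 or more at 14362 CPM. In the 183 lectin cells without a marker gene UMI it reached 20398 CPM. Ccl12 stood at 2981, 2664, 2929, 1381 and 266 CPM in the same order. Cells just outside the limit were thus like members in Ccl12 and higher in Retnla. Cd74 stood at 35857 and 40129 CPM inside the limit and at 27704, 17757 and 14673 CPM outside.

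**Figure D4:**
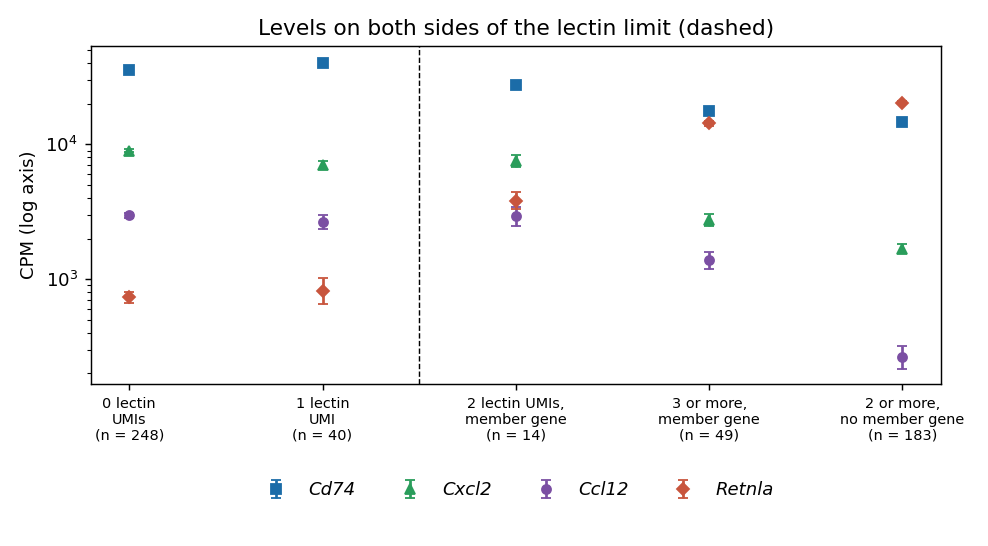
CPM (vertical, log axis) of 4 genes in cells on each side of the lectin limit (dashed line), with 95% counting intervals and the number of cells under each class. From the left to the right class, Retnla goes from 734 to 20398 CPM and Ccl12 from 2981 to 266 CPM.

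Levels of several genes differed with the marker gene that a member held, while Cd74 hardly did. Members that held a single one of the 4 genes were compared, in descriptive counts. Ccl12 stood at 1603 CPM (1296 to 1962) in the 28 members with Cx3cr1 alone, 2003 CPM in the 44 with Gpr34 alone, 2449 CPM in the 54 with Lilra5 alone and 3818 CPM (3516 to 4138) in the 64 with St3gal6 alone. Retnla was at 1535 CPM with Cx3cr1 alone, 1220 CPM with Gpr34 alone, 937 CPM with St3gal6 alone and 410 CPM with Lilra5 alone. It was detected in 53.6%, 36.4%, 45.3% and 44.4% of these cells. Over all members, 60% of Retnla UMIs lay in the 10 highest cells, so a few cells can set these levels. Ccr2 was lowest with St3gal6 alone, at 129 CPM (78.9 to 200), and stood at 512 CPM with Cx3cr1 alone. Lyve1 was highest with Lilra5 alone, at 485 CPM in 35.2% of cells, and stood between 102 and 136 CPM in the other 3 sets. Cd74 varied little, from 33186 to 37035 CPM. The number of marker UMIs made less difference: Ccl12 stood at 3030 CPM in members with 1 UMI, 2216 CPM with 2 to 3 and 3925 CPM with 4 or more.

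Depth moved with detection. The 96 shallowest members had a median of 1735 UMIs and the 96 deepest 2931.5. Ccl12 was detected in 55.2% and 75% of them and Retnla in 33.3% and 60.4%. Levels moved less for Ccl12, at 2449 and 3293 CPM, and went the other way for Retnla, at 1264 and 642 CPM.

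Chemokines, Apoe, Retnla and Cd74 led the genes that varied most among members. For each of 2129 genes the variance over members was divided by that expected from counting at the cells' depths, leaving out the highest member, a setting chosen after seeing the data. The median ratio was 1.79. Ccl7 had a ratio of 27.0, Ccl4 26.4, Cxcl2 24.8, Apoe 22.9, Retnla 22.5, Ccl12 17.5, Ccl2 15.6 and Cd74 15.6. With the highest member kept, the 10 widest ratios were all of genes with most of their UMIs in 1 cell, such as Kdm1a with 66 of 67. Chemokine RNA was concentrated in some members. Ccl4 ran from 0 to 103 UMIs with a median of 1, and 104 of 288 members held 0. Cxcl2 ran from 0 to 150 with a median of 11 and 38 members at 0. Retnla was at 0 in 163 members, and the 10 highest held 60% of its UMIs, against 26.9% for Ccl12 and 8.3% for Apoe.

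Members were then split by Ccl12 itself, 185 with a UMI and 103 without, which gave 97 pairs of like depth. Of 1099 genes, 43 (3.91%) were past the fold higher and 46 (4.19%) lower in members with Ccl12, which is itself counted among the first. The split uses Ccl12, and genes that vary with it are described without a test. Other monocyte attractants were higher in members with Ccl12: Ccl4 had 1274 and 457 UMIs, a log2 ratio of 1.49 (1.33 to 1.65), Ccl2 had 1.22 (1.11 to 1.33) and Ccl7 had 1.03 (0.91 to 1.16). So were Irf8, with 1.15 (0.55 to 1.77), the endocytic adaptor Dab2, with 1.27 (0.88 to 1.66), and Lyve1, with 1.75 (0.97 to 2.59). Lyve1 had 60 UMIs in 17 cells against 18 in 12, so its share of cells differed less than its level. Without the highest cell of each set its log2 ratio was 1.33. Ccr2 was lower in members with Ccl12, with 39 UMIs in 20 cells against 109 in 30, a log2 ratio of -1.47 (-2.04 to -0.93). S100a6 had -1.18 (-1.79 to -0.60), the galectin Lgals3 -1.28 (-1.98 to -0.61), the annexin Anxa1 -1.32 (-2.09 to -0.61) and Retnla -1.25 (-1.56 to -0.95). By list, 3 of 5 wound repair genes and 2 of 3 monocyte markers were past the fold lower, with 0 higher in either. So were 2 of 3 cell cycle genes (median -1.02). Of 12 inflammatory cytokines and chemokines, 3 were past the fold higher and 1 lower, Cxcl1 with a log2 ratio of -1.07 (-1.80 to -0.37). Cd74 differed little between the sets, with a log2 ratio of -0.07 (-0.12 to -0.03).

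The same rule was applied to the injured nerve. It was met by 205 of 2793 day 1 cells (7.34%, 6.40 to 8.37) and 580 of 2059 day 5 cells (28.2%, 26.2 to 30.2), against 39.6% at steady state. The cells that met it held another mix of the marker genes. Cx3cr1 made up 22.8% of the UMIs of the 4 genes in steady-state members, 82.1% at day 1 and 82.2% at day 5. Lilra5 made up 27.7%, 2.2% and 2.1%, Gpr34 22.1%, 2.5% and 9.5%, and St3gal6 27.4%, 13.2% and 6.1%. After crush, the rule thus picked mainly cells with Cx3cr1, and whether these are the same kind of cell was not tested.

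Steady-state members and cells meeting the rule after crush differed in many genes. Against day 1 (134 pairs), 226 of 1884 genes (12%) were past the fold higher in members and 448 (23.8%) lower, with a median log2 ratio of -0.30 over all genes. With scaling by the median of ratios, the counts were 307 and 302. Against day 5 (225 pairs), 287 of 2422 genes (11.8%) were higher and 295 (12.2%) lower, with a median of -0.10. Without the highest cell of each class, the counts were 187 of 1652 (11.3%) and 411 (24.9%) at day 1 and 246 of 2114 (11.6%) and 284 (13.4%) at day 5. These 2 comparisons share the steady-state library, so agreement between them is not independent.

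Higher in members were class II and immediate early genes. Phagocytic and scavenger receptors were mixed, with 1 of 5 past the fold higher and 2 lower at day 1 (median 0.13) and 2 of 8 higher and 2 lower at day 5 (median -0.13). Epineurial-associated genes had 7 of 14 higher and 2 lower at day 1, and 6 of 15 higher and 2 lower at day 5. Class II genes were past the fold in 7 of 7 compared at day 1 (median 2.55) and 6 of 8 at day 5 (median 1.09). Cd74 stood at 34064 against 5826 CPM at day 1 and at 36372 against 13237 CPM at day 5. Immediate early genes were higher in 17 of 20 at day 1 and 17 of 21 at day 5, where 1 was lower. Klf2, a factor of quiescent cells, stood at 7340 against 984 CPM at day 1 and 7430 against 1006 CPM at day 5, and Jun at 4886 against 670 CPM and 5337 against 931 CPM. The tetraspanin Cd81 had log2 ratios of 3.17 (2.85 to 3.51) and 2.89 (2.65 to 3.14). Hpgd, which breaks down prostaglandins, had 252 UMIs in 80 members and 8 in 5 day 1 cells, and 341 UMIs in 127 members and 31 in 17 day 5 cells. From the epineurial-associated list, Mgl2 had log2 ratios of 2.89 and 4.11 and Cd163 of 2.85 and 3.54.

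Ccl12 stood at 3045 against 1517 CPM at day 1, just past the fold with a log2 ratio of 1.01 (0.86 to 1.15), and at 2999 against 525 CPM at day 5, a log2 ratio of 2.51 (2.33 to 2.70). Retnla did not run in parallel: it stood at 830 against 34.3 CPM at day 1 and at 619 against 1067 CPM at day 5, log2 ratios of 4.60 (3.80 to 5.52) and -0.79 (-0.98 to -0.59). Apoe had log2 ratios of 1.65 and -0.37, and Trem2 of -0.17 (-0.46 to 0.12) and -1.31 (-1.52 to -1.11).

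Lower in members were wound repair and monocyte genes. Wound repair genes were past the fold lower in 9 of 11 at day 1, where 1 was higher, and in 7 of 10 at day 5. Arginase 1 (Arg1) had 0 UMIs in members and 1298 in day 1 cells, and 0 against 118 at day 5. With 3 UMIs set in place of 0 in members, it was 411-fold lower than at day 1 and 40.8-fold lower than at day 5. The counting intervals reached down to 334-fold and 32.7-fold. The matrix genes Fn1 and Thbs1 were likewise at 0 in members, against 374 and 280 UMIs at day 1 and 268 and 191 at day 5. Spp1 (osteopontin), a matrix protein of repair macrophages, had 10 UMIs in 3 members and 2139 in 111 day 1 cells, a log2 ratio of -7.67 (-8.73 to -6.79), and 12 in 5 members against 1129 in 137 day 5 cells. Monocyte markers were lower in 6 of 8 at day 1, where 1, Cebpb, was higher (log2 ratio 1.39), and in 3 of 5 at day 5. Plac8 had 1 UMI in members against 331 at day 1 and 166 at day 5. The fatty acid-binding protein Fabp5 had log2 ratios of -4.95 (-6.41 to -3.80) and -3.88 (-4.97 to -2.96). Ctsd had -2.44 and -2.81, and Lgals3 -4.00 and -2.64.

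**Figure D5:**
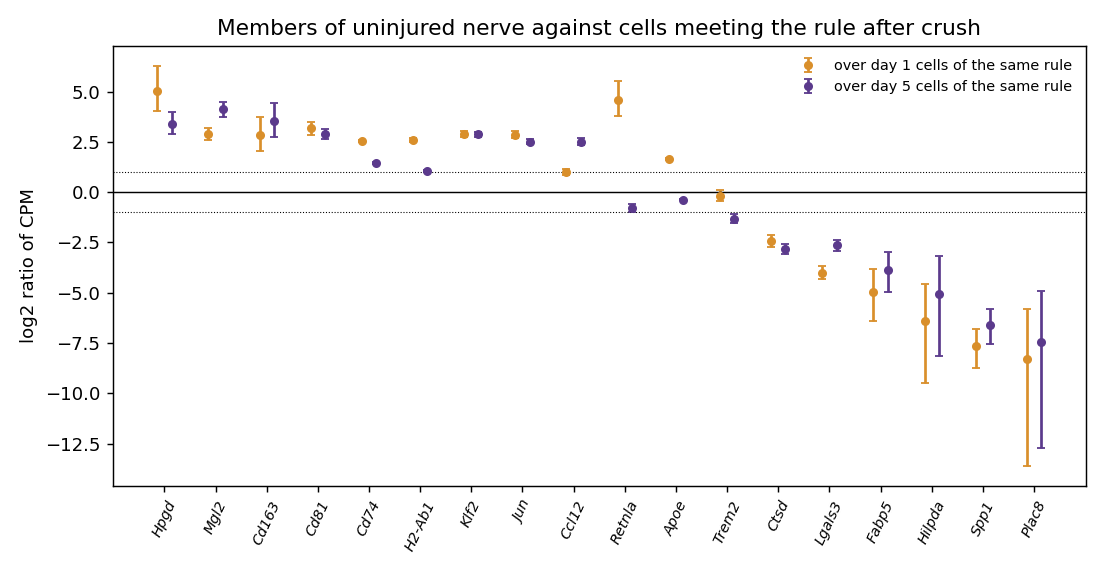
Log2 ratio of CPM (vertical) of 18 genes in steady-state members over depth-matched cells that met the same rule 1 day (orange) and 5 days (purple) after crush; bars are 95% counting intervals and dotted lines mark the 2-fold limit. The plotted genes from Hpgd to Ccl12 lie above 0 at both times, Spp1 and Plac8 lie lowest, and Retnla and Apoe lie on opposite sides of 0 at the 2 times.

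Within each injured library, cells meeting the rule were also set against that library's own depth-matched negative cells, a comparison added after seeing the data. At day 1, 85 of 3145 genes (2.7%) were higher and 76 (2.42%) lower in 205 pairs, and at day 5, 70 of 5390 (1.3%) were higher and 81 (1.5%) lower in 580 pairs. Without the highest cell of each class, 57 of 2805 (2.03%) and 22 (0.784%) were left at day 1 and 38 of 5050 (0.752%) and 35 (0.693%) at day 5. Ccl12 had log2 ratios of 0.78 at steady state, 0.71 (0.54 to 0.89) at day 1 and 0.26 (0.10 to 0.42) at day 5. Cd74 had 0.03, 0.58 (0.51 to 0.65) and 0.11 (0.09 to 0.14). At day 5 the microglial genes Tmem119, with 75 against 29 UMIs, and Olfml3, with 84 against 36, had log2 ratios of 1.36 (0.72 to 2.03) and 1.21 (0.63 to 1.82). In steady-state members they had 13 and 10 UMIs in all, too few to compare. Of 3 dendritic cell markers compared at day 5 without the highest cell of each class, 2 were past the fold lower and the other stood at a log2 ratio of -0.44. With that cell kept, Cd209a had 18 UMIs in 10 cells against 94 in 16, and Ccl5 28 in 15 cells against 190 in 24, of 580 cells each. The differences between libraries in these ratios were not tested.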

How the data were processed

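The authors deposited whole-number UMI counts per gene and cell barcode, not normalized, with 27998 genes in each of 3 tables, per the file headers and values. Alignment and counting used Cell Ranger 2.0.2 and build mm10, per the submitters' processing notes, on 10x Genomics version 1 libraries, per the labels. Total UMIs were 1658022 (steady state), 7975791 (day 1) and 5524496 (day 5). The sources do not say how free RNA and doublets were handled. No doublet caller was run, and cells in the top 5% of UMIs were left out as an alternative. A pooled deposited table was not used.

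Members and gene lists were chosen with earlier results of these data known. Cells were paired from the deepest down with the nearest unused cell. CPM has exact Poisson, CPM ratios exact conditional binomial and shares Clopper-Pearson intervals, all at 95%, covering counting error only. A class at 0 UMIs was set to 3. Named genes were the 8 with the widest ratio in each direction, up to 3 per list from 33 lists, the 9 genes of the rule and Ccl12. Mitochondrial, ribosomal, hemoglobin, immunoglobulin and predicted genes were left out. Genes named beyond that rule were chosen after their values were seen. The comparison step was tested on simulated counts that carried counting error only. The pairing and thinning steps were checked on cells of the steady-state library. Python 3.11.15, numpy 2.4.6, pandas 2.3.3 and scipy 1.17.1 were used. Lilrb4, Lilrb3, Jaml, Trac and Trbc2 were not in the table under these names. Values of some genes are not reported here. RefSeq promoter windows were found for Ccl12 and Retnla on GRCm38.p6.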

Additional observations from a re-analysis of the deposited data

Results flagged for a closer look

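At steady state and at day 1, cells meeting the rule were compared with negative cells of their own library. Of 1662 genes in both comparisons, 6 were past the fold in both, and 2 of these went in opposite directions. Over all genes, 2.59% were past the fold higher and 3.04% lower at steady state, and 2.7% and 2.42% at day 1. Phf23 had a log2 ratio of 1.30 at steady state (0.42 to 2.24, 39 against 16 UMIs in 13 and 14 cells) and of -2.25 at day 1 (-3.24 to -1.38, 13 against 62 UMIs in 10 and 22 cells). Hfe, a regulator of iron uptake, had -1.06 at steady state (-1.63 to -0.50, 41 against 86 UMIs) and 1.24 at day 1 (0.61 to 1.91, 71 against 30 UMIs). The difference was not tested, since each time was 1 library. Without the highest cell of each class, Phf23 had 0.53 and -1.85 and Hfe had -0.95 and 1.29, so neither was past the fold at both times. At day 5, 0 of 1760 genes were past the fold in both libraries.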

How the results depend on the processing

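No paired analysis was possible because each group is 1 library. The share of members, 39.6%, was 25.1% with 2 or more marker UMIs asked for, 34.1% with 0 lectin UMIs allowed, 30.6% in cells thinned to 1000 UMIs and 43.6% with 500 detected genes asked for. The share with at least a pair of the 4 genes was 34.0%, and 11.7% after thinning. Counts of genes past the fold depended on depth and on the filter, and so did the number of genes compared. Against negative cells, 46 higher and 54 lower of 1775 genes became 85 and 55 of 2390 without depth matching. They became 20 and 19 of 1069 with thinned cells and 259 and 245 of 3622 at 20 UMIs per gene. At 100 UMIs they were 4 and 14 of 927. Without cells holding other-type markers they were 32 and 29 of 781, and without each gene's highest cell 13 and 23 of 1504. Against lectin cells, 160 and 247 of 2336 became 88 and 125 of 1225 with thinned cells. They became 457 and 593 of 4473 at 20 UMIs, and 64 and 121 of 1285 at 100 UMIs. Against day 1, 226 and 448 of 1884 became 365 and 704 of 3115 without depth matching. They became 555 and 887 of 3798 at 20 UMIs, and 127 and 246 of 938 with 2 or more marker UMIs. Against day 5, 287 and 295 of 2422 became 400 and 666 of 4494 without depth matching. They became 715 and 673 of 4677 at 20 UMIs, and 159 and 211 of 1528 with 2 or more marker UMIs. More or fewer genes or cells enter under these settings; otherwise the cause was not tested. Of 3078 values of single genes and lists under alternatives, 2833 stayed within a set band and 245 moved beyond it. Of those past the fold, 0 changed sign. A change in the UMIs asked for per gene leaves a single gene's ratio as it is, so it could move list medians only. Under that change 437 values stayed and 1 moved at 20 UMIs, and 152 stayed at 100 UMIs. The band was the counting interval for a single gene. For a list median it was 1 standard deviation of the log2 ratios of its genes to either side. The 4 held-out marker ratios kept within their intervals. Depth limits the rule: at a median of 2304 UMIs per member, a cell with 0 UMIs of a marker may still express it.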
